A study of Mus musculus with 45 samples.

Results

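Sidestream cigarette smoke was compared with filtered air in the hearts of diet-induced obese (DIO) mice. The comparison took the 8 arrays titled DIO-SS (sidestream smoke) and the 8 titled DIO-SC (sham control, filtered air), 16 of the 45 arrays in the series, and covered all genes measured. Male C57BL/6 mice were bought at 13 weeks of age. Both DIO groups had eaten a diet with 60 kcal% fat since the age of 6 weeks, 9 weeks in all before the study began, and were 15 weeks old at the first exposure. Regular weight (RW) mice, used here for comparison, ate a diet with about 5 kcal% fat and breathed air (RW-SC, 8 arrays) or sidestream smoke (RW-SS, 7 arrays), and a further DIO group breathed mainstream smoke (DIO-MS, 6 arrays). RW mice that breathed mainstream smoke (RW-MS, 8 arrays) were compared with no group here, but the model's shared estimate of spread includes them. Exposure was by the nose only, 5 h per day on 8 days within 2 weeks (5 days, a pause of 2 days, 3 more days), and the mice were killed the day after the last one. The growth protocol in the labels speaks of an LPS study, whereas the titles, the treatment protocol and the sample characteristics name cigarette smoke, which was followed here. Body weight was not among the values analysed, so obesity rests on the label. Each array held RNA of 1 heart, which the labels call a biological replicate, and no donor, litter or batch is named.

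Sidestream smoke comes off the burning tip of a cigarette between puffs, and mainstream smoke is what is drawn through the cigarette. Polycyclic hydrocarbons in smoke bind the aryl hydrocarbon receptor, a transcription factor that switches on cytochrome P450 genes such as Cyp1a1. Oxidants act through the transcription factor NRF2 on genes of glutathione and quinone metabolism, and damaged protein acts through heat shock factors on chaperone genes. The adult heart lives mainly on fatty acids, keeps a circadian clock and answers stress hormones through the glucocorticoid receptor, so that genes of these programmes are commonly read in exposed hearts.

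All values are log2 expression levels, and a difference of 1 is a doubling. The arrays matched their tissue label: the mean level of 13 markers of heart muscle cells lay between 13.30 and 13.39 in DIO-SC and between 13.34 and 13.37 in DIO-SS. Markers of lung epithelium averaged 5.09 to 5.43, near the level of 4.90 under which genes were left out as dim. The array DIO-SC 2 stood apart. Its correlation with the mean of its own group was 0.993 against 0.996 or more for the other 15 arrays, its lymphocyte markers averaged 6.85 against 6.35 or less, and its white fat and atrial markers, at 9.07 and 10.44, were the highest of its group. White fat markers varied widely in both groups, from 7.25 to 9.07 in DIO-SC and from 7.94 to 9.49 in DIO-SS, where DIO-SS 8 was highest. In whole hearts, fewer cells of a type and less RNA per cell cannot be told apart.

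Sidestream smoke went with many small differences. Of 9295 genes tested with limma and Benjamini-Hochberg adjustment, 2960 (31.8%) passed an adjusted p of 0.05, 2140 (23%) higher and 820 (8.82%) lower in DIO-SS. The median size of the difference among them was 0.19, and 5 genes (0.0538%) rose and 13 (0.14%) fell by at least 1.5-fold. The groups did not overlap for 666 genes (7.17%), with every DIO-SS array above every DIO-SC array for 555 (5.97%) and below for 111 (1.19%). The balance of rises and falls depended on the scaling. Rises made up 72.3% of the calls as deposited, 52.1% after a further quantile normalization (1082 or 11.6% of all genes higher and 993 or 10.7% lower) and 38.0% after centring each array on its median (908 or 9.77% higher and 1481 or 15.9% lower), while the median difference over all genes was 0.04. Under both of these scalings and as deposited, 840 genes rose and 674 fell. Without DIO-SC 2, 2062 genes rose and 873 fell.

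**Figure D1:**
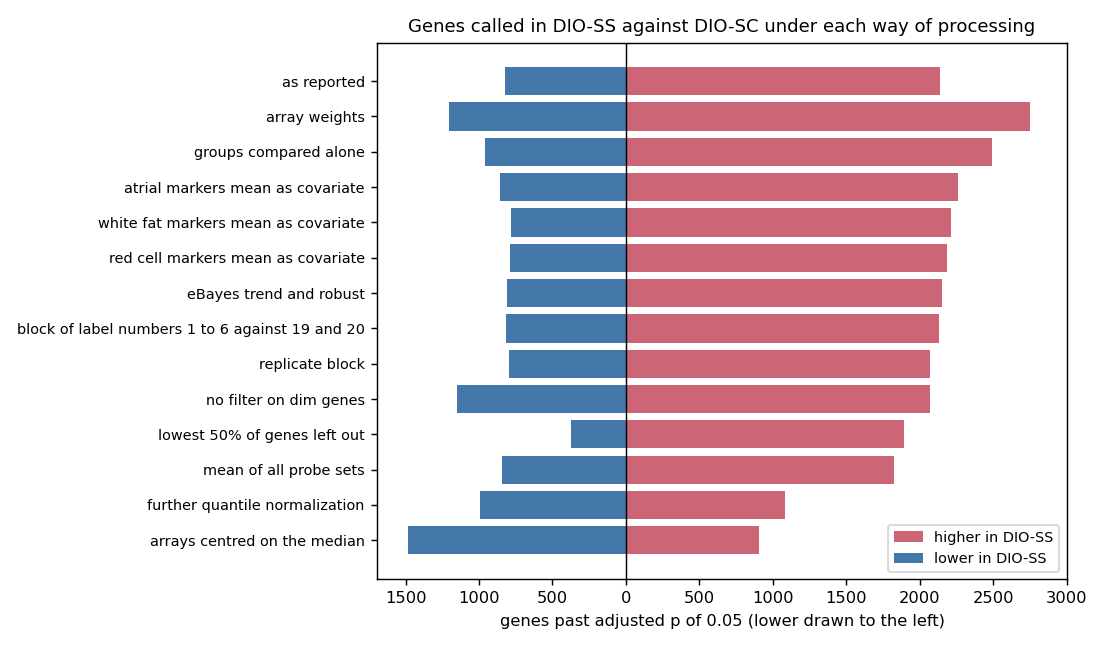
Genes higher (right, red) and lower (left, blue) in DIO-SS than in DIO-SC at an adjusted p of 0.05 under each way of processing, with the number of genes on the horizontal axis. The reported fit has 2140 rises and 820 falls, and the balance turns to 908 and 1481 when each array is centred on its median.

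Of the heat shock chaperones, which refold damaged protein, those that passed the test were lower under sidestream smoke. Of 24 tested, 10 fell and 0 rose, against 8.82% and 23% of all genes, and the median difference of the list was -0.10. Under the other scalings 0 rose and 16 fell after centring, against 1 and 11 after the further quantile normalization. Among all genes 9.77% rose and 15.9% fell after centring, and 11.6% and 10.7% after quantile normalization. The inducible Hsp70 genes led the list. Hspa1b ranged from 8.59 to 10.81 (median 9.36) in DIO-SC and 7.27 to 8.06 (median 7.81) in DIO-SS, and every DIO-SS array lay below every DIO-SC array. The difference was -1.77 ± 0.24 (SE), adjusted p = 9.61e-07, or 3.42-fold. Hspa1a ranged from 7.05 to 9.37 (median 7.76) in DIO-SC and 6.43 to 7.23 (median 6.53) in DIO-SS, with 1 high array, DIO-SS 1, reaching into the DIO-SC range. Its difference was -1.32 ± 0.22 (SE), adjusted p = 1.9e-05. Both genes encode nearly the same protein, and probe sets can read each for the other, so they are not separate evidence. Dnaja1, an Hsp40 co-chaperone of Hsp70, ranged from 10.16 to 10.81 (median 10.41) in DIO-SC and 9.74 to 10.09 (median 9.92) in DIO-SS, with no overlap. It fell by 0.55 on the log2 scale (adjusted p = 2.22e-05). Hspe1, the mitochondrial Hsp10 lid of the Hsp60 chamber, fell by 0.17 (adjusted p = 0.00133). The other falls were those of Hsph1, Hsp90aa1, Dnajb1, Stip1, Hspa8 and Hspd1.

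The air group of the DIO mice held the highest mean levels of Hspa1b and Hspa1a. Hspa1b averaged 9.54 in DIO-SC and 7.77 in DIO-SS, against 7.28 in RW-SC, 7.45 in RW-SS and 7.98 in DIO-MS. The DIO-SS level thus lay near those of the RW and DIO-MS mice, and 1 DIO-MS array reached 9.30. Hspa1a was also highest in DIO-SC, with 7.96 in DIO-SC, 6.63 in DIO-SS, 6.14 in RW-SC, 6.10 in RW-SS and 6.66 in DIO-MS. The 3' minus 5' difference of Gapdh, a sign of RNA breakdown, was alike in both groups, at 0.26 to 0.40 in DIO-SC and 0.22 to 0.37 in DIO-SS. The fall of Hspa1b kept its call when each array was left out in turn, DIO-SC 2 included, with a largest adjusted p of 4.24e-06.

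The promoters of the members that fell most are shown because they carry the letters that heat shock factors are known to bind. The windows run from 250 bases before to 50 after the annotated start (RefSeq, GRCm38.p6), 5' to 3' on the gene's own strand, with a match to GAANNTTC in capitals. They are chr17:34972107-34972406 (minus strand), chr17:34959189-34959488 (minus strand) and, for 1 of the 3 annotated starts of Dnaja1, chr4:40722218-40722517 (plus strand).
Hspa1a: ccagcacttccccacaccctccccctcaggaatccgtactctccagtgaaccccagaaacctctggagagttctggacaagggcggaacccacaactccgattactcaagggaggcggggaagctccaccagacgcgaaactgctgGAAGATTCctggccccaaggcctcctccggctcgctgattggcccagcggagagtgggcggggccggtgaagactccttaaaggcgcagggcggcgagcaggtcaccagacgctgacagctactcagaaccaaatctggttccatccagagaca
Hspa1b: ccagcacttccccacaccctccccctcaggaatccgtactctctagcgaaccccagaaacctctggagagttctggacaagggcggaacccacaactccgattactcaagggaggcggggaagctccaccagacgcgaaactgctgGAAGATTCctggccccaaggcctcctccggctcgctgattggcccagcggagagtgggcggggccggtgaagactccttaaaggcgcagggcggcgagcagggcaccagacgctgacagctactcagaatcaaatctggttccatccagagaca
Dnaja1: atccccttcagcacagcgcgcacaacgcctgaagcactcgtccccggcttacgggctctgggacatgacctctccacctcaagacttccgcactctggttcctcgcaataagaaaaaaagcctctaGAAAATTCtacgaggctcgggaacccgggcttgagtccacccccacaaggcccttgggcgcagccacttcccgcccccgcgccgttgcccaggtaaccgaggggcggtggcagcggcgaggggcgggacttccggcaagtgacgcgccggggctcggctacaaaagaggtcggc
The match begins 104 bases before the start in both Hspa1a and Hspa1b, whose windows are identical at 296 of 300 positions, and 124 bases before it in Dnaja1. Searched on both strands, the letters occur in 7.86% of 32851 promoter windows of this length and in at least 1 window of 9.04% of 27025 genes. Among the list's members they occur in 6 of the 8 that fell and have a window, namely Hspa1a, Hspa1b, Hsph1, Hspd1, Hspe1 and Dnaja1, and in 5 of the 12 that did not pass. A match is a description of the sequence and not a site shown to be bound.

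**Figure D2:**
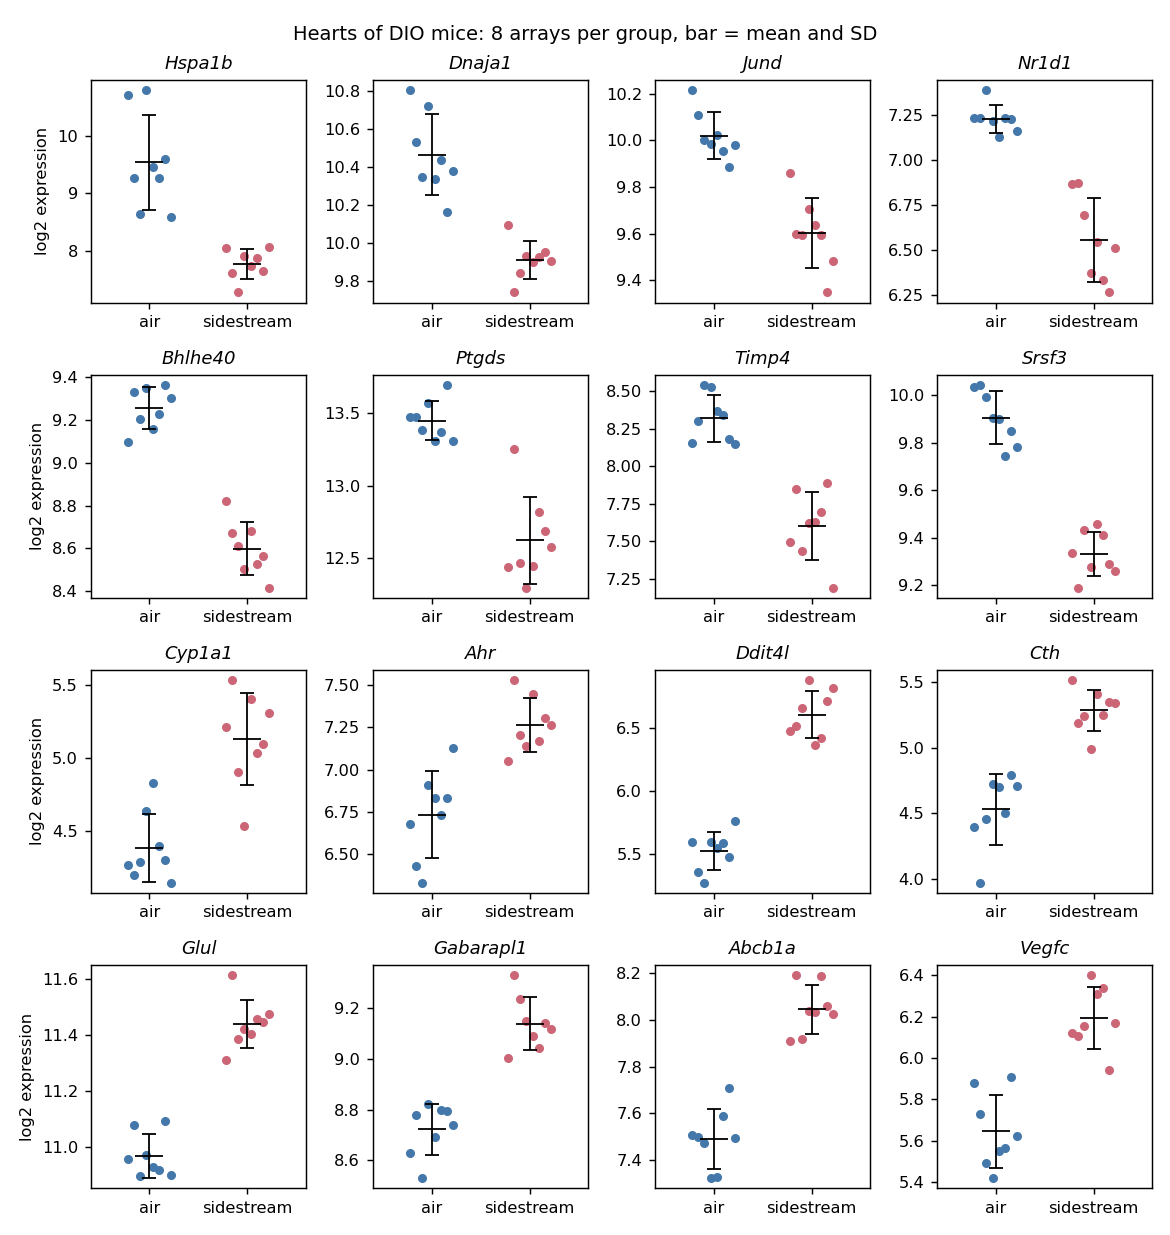
Log2 expression (vertical axes, scaled per gene) of 16 genes in the 8 DIO-SC (air, blue) and 8 DIO-SS (sidestream, red) arrays, 1 point per array, with the mean and SD in black. In Hspa1b, Nr1d1 and Bhlhe40 all DIO-SS points lie below all DIO-SC points, in Ddit4l, Glul and Abcb1a above them, and in Cyp1a1 and Ahr the groups overlap.

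Immediate early genes, which cells switch on within minutes of a stimulus, had more falls than rises. Of 23 tested, 9 fell, 1, Ier3, rose and 13 did not pass, against 8.82% lower and 23% higher among all genes (15.9% and 9.77% after centring), with a list median of -0.11, and 0 rose and 11 fell after centring, against 0 and 10 after the further quantile normalization. Jund, a subunit of the AP-1 transcription factor, ranged from 9.88 to 10.22 (median 9.99) in DIO-SC and 9.35 to 9.86 (median 9.60) in DIO-SS. Its groups did not overlap, and the difference was -0.42 ± 0.05 (SE), adjusted p = 3.39e-07. Atf3, a stress-induced repressor, ranged from 5.82 to 6.44 (median 6.23) in DIO-SC and 5.75 to 5.92 (median 5.89) in DIO-SS, with overlapping groups and a difference of -0.32 ± 0.08 (SE), adjusted p = 0.00352. The orphan nuclear receptors Nr4a1 and Nr4a3 differed by -0.46 (adjusted p = 0.0091) and -0.21 (adjusted p = 0.00274). In Nr4a1 the array DIO-SC 2 was the highest at 8.17.

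The aryl hydrocarbon receptor list had 4 of 7 members higher and 0 lower, against 23% and 8.82% of all genes. After centring 4 rose and 0 fell, where 9.77% of all genes rose and 15.9% fell. After the further quantile normalization 4 rose and 0 fell, where the shares were 11.6% and 10.7%. Cyp1a1, the receptor's classical target, ranged from 4.15 to 4.82 (median 4.30) in DIO-SC and 4.53 to 5.53 (median 5.15) in DIO-SS. The lowest DIO-SS array lay within the DIO-SC range, and the difference was 0.74 ± 0.12 (SE), adjusted p = 1.2e-05. The DIO-SC mean of 4.38 is under the 4.90 used as the filter on the mean over all arrays. Cyp1a1 was lowest in DIO-SC among the groups: it averaged 5.13 in DIO-SS, 5.67 in RW-SC, 5.53 in RW-SS and 6.20 in DIO-MS. The DIO-SS arrays thus lay below the mean of the RW mice that breathed air.

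Ahr, the receptor itself, ranged from 6.33 to 7.13 (median 6.78) in DIO-SC and 7.05 to 7.53 (median 7.23) in DIO-SS, with a small overlap and a difference of 0.53 ± 0.08 (SE), adjusted p = 1.03e-05. A second probe set of Ahr differed by -0.15, in the other direction. Tiparp, a polymerase that modifies and represses the receptor, rose by 0.30 (adjusted p = 0.000169), and Cyp1b1, a further P450 of the receptor's battery, by 0.45 (adjusted p = 0.0164). Each has a further probe set that differed by -0.16 and -0.16, and neither call held for the mean of all probe sets. Cyp1b1 also lost its call without DIO-SC 6 (adjusted p = 0.0527).

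The promoter of Cyp1a1 (chr9:57697363-57697662, plus strand, GRCm38.p6) is shown with its match to GCGTG, the core of the element the receptor is known to bind, in capitals.
Cyp1a1: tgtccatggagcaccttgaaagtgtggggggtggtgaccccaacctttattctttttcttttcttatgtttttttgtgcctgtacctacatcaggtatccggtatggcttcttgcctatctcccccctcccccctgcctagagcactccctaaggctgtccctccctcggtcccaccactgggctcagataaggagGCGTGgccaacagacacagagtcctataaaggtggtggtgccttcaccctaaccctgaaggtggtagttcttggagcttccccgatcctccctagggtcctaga
The match begins 54 bases before the start. These 5 letters are common and occur, on either strand, in 32.4% of all promoter windows and in at least 1 window of 35.2% of all genes. They occur in the windows of all 3 rising members that have one (Tiparp, Cyp1a1 and Cyp1b1) and of 2 of the 3 that did not pass.

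Among genes that handle oxidants and foreign compounds, most members of each list did not pass. Of 21 NRF2 targets, 8 rose, 0 fell and 13 did not pass, against 23% higher and 8.82% lower among all genes. After centring 3 rose and 2 fell, where 9.77% of all genes rose and 15.9% fell. After the further quantile normalization 4 rose and 1 fell, where the shares were 11.6% and 10.7%. Blvrb, a biliverdin reductase, ranged from 7.79 to 7.98 (median 7.89) in DIO-SC and 8.04 to 8.21 (median 8.15) in DIO-SS, without overlap (difference 0.24 ± 0.04 (SE), adjusted p = 6.68e-05). The quinone reductase Nqo1 rose by 0.25 (adjusted p = 0.00752) and Gclm, part of the enzyme that makes the precursor of glutathione, by 0.22 (adjusted p = 0.0306), and both calls were lost under either other scaling. Gclm also lost its call without DIO-SC 3, DIO-SC 8, DIO-SS 4 or DIO-SS 6 (adjusted p up to 0.0788). Srxn1, which repairs peroxiredoxins, rose by 0.17 (adjusted p = 0.00648) and lost its call after centring. Hmox1, the inducible haem oxygenase, did not pass: it ranged from 6.53 to 6.99 (median 6.66) in DIO-SC and 6.45 to 6.85 (median 6.66) in DIO-SS, a difference of -0.05 ± 0.11 (SE), adjusted p = 0.745. Of 17 glutathione S-transferases 6 rose and 1 fell, and 2 rose and 2 fell after centring, against 4 and 1 after the further quantile normalization. Gsta4, which conjugates products of lipid peroxidation, ranged from 10.08 to 10.30 (median 10.23) in DIO-SC and 10.32 to 10.62 (median 10.48) in DIO-SS, without overlap (difference 0.26 ± 0.04 (SE), adjusted p = 2.87e-05). None of 8 metallothionein and zinc genes passed in limma, with Mt1 at 0.14 (adjusted p = 0.088) and Mt2 at 0.31 (adjusted p = 0.0657).

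Cth, the enzyme that makes cysteine from cystathionine, ranged from 3.97 to 4.79 (median 4.60) in DIO-SC and 4.99 to 5.52 (median 5.30) in DIO-SS, without overlap. It rose by 0.76 ± 0.10 (SE), adjusted p = 1.2e-06. As with Cyp1a1, its mean in DIO-SC (4.53) was under 4.90 and below that in RW-SC (5.39), RW-SS (5.44) and DIO-MS (5.31). Abcb1a, a drug efflux pump of the vessel wall, ranged from 7.33 to 7.71 (median 7.50) in DIO-SC and 7.91 to 8.19 (median 8.04) in DIO-SS. No arrays overlapped, and the difference was 0.55 ± 0.07 (SE), adjusted p = 3.5e-07, with both of its probe sets higher.

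Most output genes of the circadian clock that passed were lower. In this clock, activators drive period and cryptochrome genes that repress them, and output factors pass the rhythm on. The hour of necropsy is not given in the sources used here. Of 7 output factors 4 fell and 2 rose (Tef and Nfil3), and 1 rose and 4 fell after centring, against 1 and 4 after the further quantile normalization. Among all genes 23% rose and 8.82% fell as deposited, and 9.77% rose and 15.9% fell after centring. Bhlhe40, a repressor, ranged from 9.10 to 9.36 (median 9.27) in DIO-SC and 8.42 to 8.82 (median 8.59) in DIO-SS, without overlap, a difference of -0.66 ± 0.07 (SE), adjusted p = 7.38e-09. Nr1d1, the nuclear receptor REV-ERB alpha, ranged from 7.13 to 7.39 (median 7.23) in DIO-SC and 6.26 to 6.87 (median 6.53) in DIO-SS. Its groups were also separate, and it differed by -0.67 ± 0.08 (SE), adjusted p = 6.85e-08. Dbp, an activator of output genes, ranged from 10.83 to 11.19 (median 11.04) in DIO-SC and 10.40 to 10.76 (median 10.53) in DIO-SS, again without overlap (difference -0.49 ± 0.08 (SE), adjusted p = 1.19e-05). Hlf, its relative, differed by -0.46 (adjusted p = 0.000121), with overlapping groups, and by -0.11 in its second probe set. These 4 calls held under every alternative run. In the core loop of 10 genes 6 rose and 2 fell, but 3 rose and 2 fell after centring, against 4 and 2 after the further quantile normalization. Rora, which activates Arntl, rose by 0.34 (adjusted p = 1.19e-05), and the kinase gene Csnk1d by 0.20 (adjusted p = 0.00027); neither call held for the mean of all probe sets, and Cry2, a cryptochrome, at 0.21 (adjusted p = 0.00994), lost its call under both other scalings. Per2, a period gene, differed by -0.25 (adjusted p = 0.025) and lost its call without DIO-SC 1, 2 or 3 or DIO-SS 3 or 7 (adjusted p up to 0.0672). Arntl, the activator, did not pass at 0.13 (adjusted p = 0.447). Without DIO-SC 2, 6 core genes rose and 0 fell.

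Targets of glucocorticoids moved both ways. Of 24 tested, 4 rose and 6 fell, and 4 rose and 7 fell after centring, against 4 and 6 after the further quantile normalization. As deposited, 23% of all genes rose and 8.82% fell, and after centring 9.77% rose and 15.9% fell. Zbtb16, a zinc finger repressor that glucocorticoids induce, ranged from 7.15 to 8.52 (median 8.32) in DIO-SC and 6.85 to 7.80 (median 7.26) in DIO-SS. The lowest DIO-SC array, DIO-SC 1, lay far under the others and inside the DIO-SS range, and the difference was -0.84 ± 0.15 (SE), adjusted p = 3.7e-05. The second probe set of Zbtb16 differed by -0.22. Glul, glutamine synthetase, ranged from 10.90 to 11.10 (median 10.95) in DIO-SC and 11.31 to 11.62 (median 11.44) in DIO-SS, without overlap. It rose by 0.47 ± 0.05 (SE), adjusted p = 3.56e-08. Gadd45a, a growth arrest gene also in the p53 list, rose by 0.44 (adjusted p = 4.22e-05), without overlap. Fkbp5, a co-chaperone of the receptor, was close to the threshold at -0.35 (adjusted p = 0.0486), and its call was lost in 11 of the 16 fits that left out 1 array, among them that without DIO-SC 2 (largest adjusted p = 0.118). The receptor gene Nr3c1 rose by 0.21 (adjusted p = 0.000643), but the mean of its probe sets did not differ in that direction. Cebpb, a transcription factor of the acute phase, ranged from 9.67 to 10.01 (median 9.83) in DIO-SC and 9.43 to 9.87 (median 9.57) in DIO-SS, with overlap and a difference of -0.26 ± 0.07 (SE), adjusted p = 0.00333, which was lost for the mean of its probe sets. Tsc22d3 (-0.14, adjusted p = 0.163) and Ddit4, an inhibitor of mTOR (-0.25, adjusted p = 0.276), did not pass.

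Ddit4l, a relative of Ddit4 that also restrains mTOR signalling, had the largest rise among the genes past the threshold. It ranged from 5.27 to 5.76 (median 5.57) in DIO-SC and 6.37 to 6.88 (median 6.59) in DIO-SS, and every DIO-SS array lay above every DIO-SC array. The difference was 1.08 ± 0.15 (SE), adjusted p = 1.08e-06, or 2.12-fold, and its second probe set rose by 0.61. Of 17 autophagy and FoxO target genes 8 rose, 0 fell and 9 did not pass, against 23% higher and 8.82% lower among all genes. After centring 6 rose and 1 fell, where 9.77% of all genes rose and 15.9% fell. After the further quantile normalization 6 rose and 0 fell, where the shares were 11.6% and 10.7%. Gabarapl1, which coats the autophagosome, ranged from 8.53 to 8.82 (median 8.76) in DIO-SC and 9.003 to 9.33 (median 9.13) in DIO-SS, without overlap (difference 0.42 ± 0.06 (SE), adjusted p = 1.79e-06). Sqstm1, the cargo receptor p62, rose by 0.33 (adjusted p = 0.00022) and Ulk1, the kinase that starts the process, by 0.24 (adjusted p = 0.000171), both without overlap. Foxo1, Foxo3, Map1lc3a, Map1lc3b and Atg12 were the other rises. The p53 list had 5 of 14 higher and 0 lower, but 4 rose and 4 fell after centring, against 4 and 2 after the further quantile normalization.

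The lists of fuel use had the following counts, where 23% of all genes were higher and 8.82% lower as deposited. After centring 9.77% of all genes were higher and 15.9% lower, and after quantile normalization 11.6% and 10.7%. Of 27 genes of fatty acid oxidation 9 rose and 0 fell, and 2 rose and 1 fell after centring, against 4 and 1 after the further quantile normalization. Ehhadh, a peroxisomal enzyme, rose by 0.46 (adjusted p = 0.00113), and Slc25a20, which carries acylcarnitine into mitochondria, by 0.19 (adjusted p = 0.000235), the latter without overlap. Of 20 genes of fatty acid uptake, droplets and uncoupling 6 rose and 0 fell, and 1 rose and 0 fell after centring, against 3 and 0 after the further quantile normalization. Cd36, the main fatty acid receptor, rose by 0.11 (adjusted p = 0.0059) and lost its call after centring. Angptl4, a secreted inhibitor of lipoprotein lipase, ranged from 7.09 to 8.23 (median 7.62) in DIO-SC and 7.83 to 9.43 (median 8.31) in DIO-SS. Its highest array was DIO-SS 8, which also had the most white fat marker RNA, and the difference was 0.79 ± 0.26 (SE), adjusted p = 0.0166. The call was lost without that array (adjusted p = 0.0508). The second probe set of Angptl4 differed by -0.02. Adipoq, a marker of fat cells, ranged from 4.63 to 9.84 (median 6.70) in DIO-SC and 7.08 to 10.66 (median 7.95) in DIO-SS, and did not pass (difference 1.15 ± 0.93 (SE), adjusted p = 0.359). Pdk4, which spares glucose, did not pass at 0.10 (adjusted p = 0.7). Of 22 genes of glucose transport and glycolysis 3 rose and 1 fell. Of 34 respiratory chain genes 1 rose and 0 fell, and 0 rose and 7 fell after centring, against 2 and 0 after the further quantile normalization.

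Breakdown of branched-chain amino acids had 8 of 19 genes higher and 0 lower, and 3 rose and 0 fell after centring, against 3 and 0 after the further quantile normalization. For this list and those below, 23% of all genes were higher and 8.82% lower as deposited. The shares were 9.77% and 15.9% after centring, and 11.6% and 10.7% after quantile normalization. Dbt, the core of the dehydrogenase complex, ranged from 9.11 to 9.42 (median 9.17) in DIO-SC and 9.45 to 9.55 (median 9.50) in DIO-SS, without overlap (difference 0.28 ± 0.05 (SE), adjusted p = 2.73e-05). In cholesterol synthesis 4 of 14 genes rose and 0 fell, and 3 rose and 1 fell after centring, against 3 and 0 after the further quantile normalization. Fdft1, squalene synthase, ranged from 8.79 to 9.07 (median 8.93) in DIO-SC and 9.34 to 9.50 (median 9.42) in DIO-SS, without overlap. Its difference was 0.49 ± 0.06 (SE), adjusted p = 1.24e-07, although its 4 probe sets were divided, from -0.17 to 0.49. Cyp51, a later enzyme of the pathway, rose by 0.36 (adjusted p = 0.000835). Nampt, the enzyme that limits NAD salvage, ranged from 9.97 to 10.19 (median 10.11) in DIO-SC and 10.47 to 10.71 (median 10.61) in DIO-SS, without overlap, and rose by 0.51 (adjusted p = 9.07e-07), while its list had 2 of 9 higher and 1 lower. Slc2a1, a basal glucose transporter, rose by 0.40 (adjusted p = 2.05e-05).

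**Figure D3:**
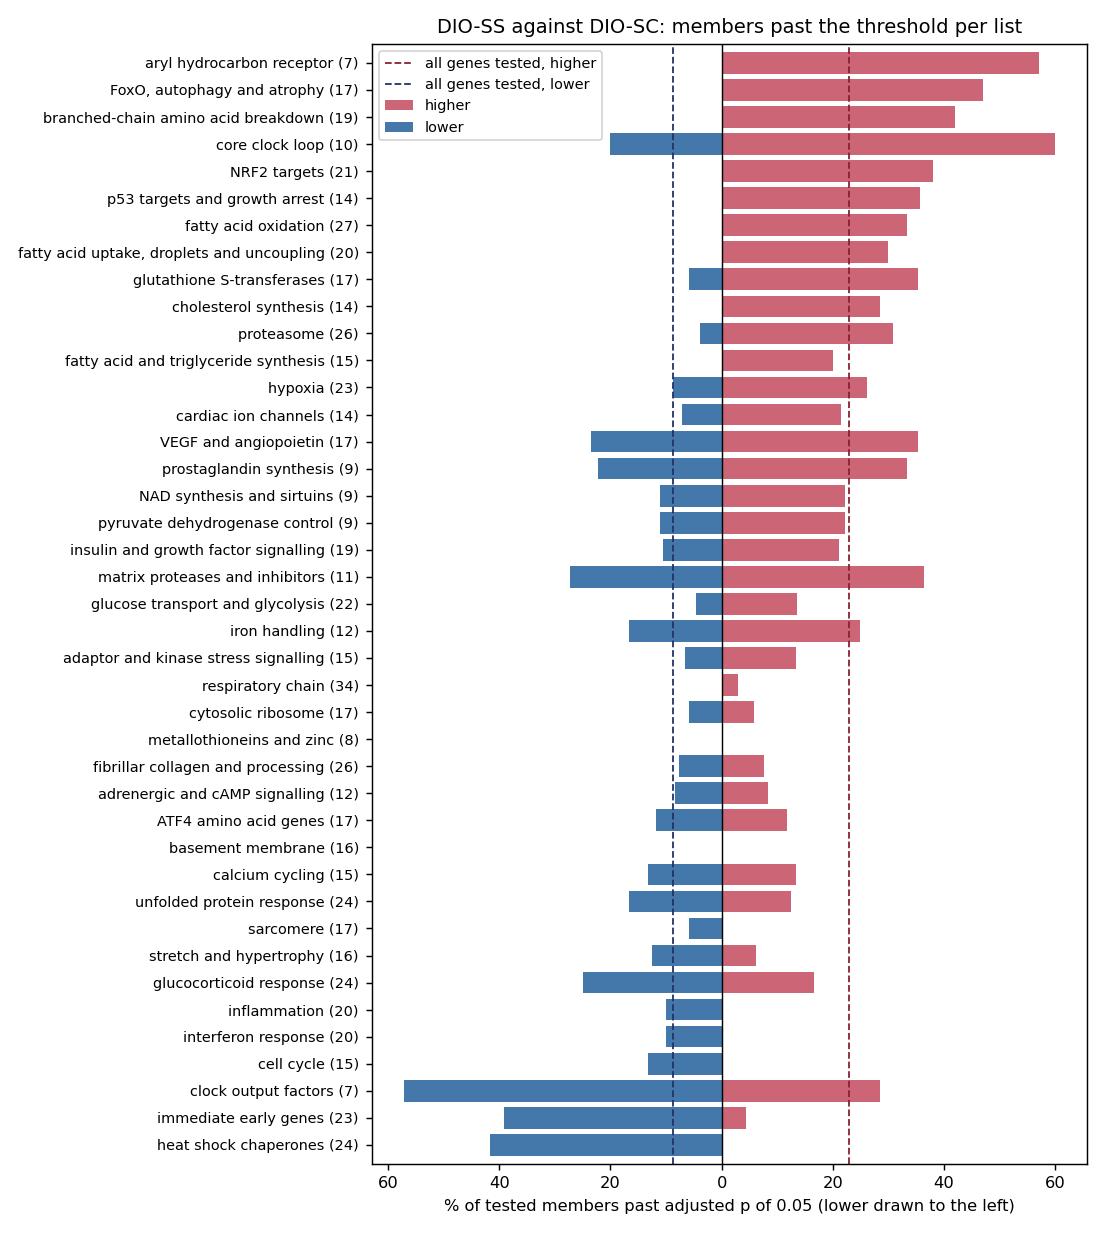
Share of the tested members of each of the 41 pathway lists (number tested in brackets) past an adjusted p of 0.05 in DIO-SS against DIO-SC, higher to the right and lower to the left, with dashed lines at the shares of all genes tested, 23% higher and 8.82% lower. Clock output factors reach farthest to the left, with 4 of 7 members lower. Heat shock chaperones and immediate early genes follow, with 10 of 24 and 9 of 23 members lower.

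Iron and oxygen sensing genes were mixed. Tfrc, which takes up transferrin-bound iron, ranged from 10.15 to 10.82 (median 10.46) in DIO-SC and 9.04 to 10.19 (median 9.81) in DIO-SS, with slight overlap, and its difference was -0.69 ± 0.19 (SE), adjusted p = 0.00422. All 6 of its probe sets were lower. Slc25a28, a mitochondrial iron carrier, ranged from 7.69 to 7.90 (median 7.87) in DIO-SC and 8.05 to 8.35 (median 8.14) in DIO-SS, without overlap (difference 0.30 ± 0.05 (SE), adjusted p = 5.75e-06). Slc40a1, the iron exporter ferroportin, rose by 0.23 (adjusted p = 0.0246), a call lost under both other scalings and without DIO-SS 4 (adjusted p = 0.0804). Of 12 iron genes 3 rose and 2 fell. Of 23 hypoxia genes 6 rose and 2 fell, shares close to those of all genes (23% and 8.82%). Ccng2, an atypical cyclin, rose by 0.42 (adjusted p = 8.67e-06), and Vegfa did not pass at -0.14 (adjusted p = 0.0794). In the unfolded protein response 3 of 24 rose and 4 fell: Atf6, a sensor of the endoplasmic reticulum, rose by 0.31 (adjusted p = 1.19e-06) and Herpud1 by 0.33 (adjusted p = 0.000368), both without overlap, whereas the chaperone Hspa5 differed by -0.19 (adjusted p = 0.00693).

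Of 15 markers of the vessel lining (endothelium) 8 rose, 0 fell and 7 did not pass, against 23% higher and 8.82% lower among all genes, and 5 rose and 0 fell after centring, against 5 and 0 after the further quantile normalization. The mean over the list was 8.68 to 8.82 in DIO-SC and 8.81 to 8.96 in DIO-SS, so the groups nearly separated. Cldn5, a tight junction protein, ranged from 7.31 to 7.72 (median 7.62) in DIO-SC and 7.86 to 8.25 (median 8.03) in DIO-SS, without overlap (difference 0.43 ± 0.07 (SE), adjusted p = 1.01e-05). Pecam1, Emcn and the angiopoietin receptor Tek rose by 0.29 (adjusted p = 0.000624), 0.30 (adjusted p = 0.000178) and 0.20 (adjusted p = 0.000229), each without overlap. What part endothelial cell number had in the results below was not tested. Among 17 genes of VEGF and angiopoietin signalling 6 rose and 4 fell, but 3 rose and 6 fell after centring, against 4 and 5 after the further quantile normalization. Vegfc, a growth factor of lymphatic vessels, ranged from 5.42 to 5.91 (median 5.59) in DIO-SC and 5.94 to 6.40 (median 6.16) in DIO-SS, without overlap, and rose by 0.55 ± 0.09 (SE), adjusted p = 1.39e-05. Aplnr, the apelin receptor, rose by 0.48 (adjusted p = 0.00368), and Angpt1, the ligand of Tek, differed by -0.38 (adjusted p = 0.00146).

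A prostaglandin synthase and an endothelin receptor were among the genes that fell. Ptgds, which makes prostaglandin D, ranged from 13.31 to 13.69 (median 13.43) in DIO-SC and 12.30 to 13.25 (median 12.52) in DIO-SS. Every DIO-SS array lay below every DIO-SC array, though 1 came close, and the difference was -0.82 ± 0.10 (SE), adjusted p = 1.03e-07. Ednrb, an endothelin receptor, ranged from 6.52 to 7.23 (median 6.88) in DIO-SC and 5.78 to 6.28 (median 6.06) in DIO-SS, without overlap (difference -0.78 ± 0.09 (SE), adjusted p = 6.6e-08). Its second probe set differed by -0.09.

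Matrix proteases and their inhibitors moved in both directions: of 11 tested, the proteases Mmp2, Mmp3, Mmp14 and Adamts5 rose, and the protease Mmp9 and the inhibitors Timp3 and Timp4 fell. After centring and after quantile normalization 2 rose and 3 fell. Timp4, the inhibitor typical of the heart, ranged from 8.15 to 8.54 (median 8.32) in DIO-SC and 7.19 to 7.89 (median 7.62) in DIO-SS, without overlap, a difference of -0.72 ± 0.14 (SE), adjusted p = 0.000166. Timp3 ranged from 10.72 to 11.25 (median 10.88) in DIO-SC and 10.39 to 10.70 (median 10.51) in DIO-SS, also separate, and differed by -0.39 (adjusted p = 0.000146). Adamts5, which cleaves proteoglycans, ranged from 8.05 to 8.37 (median 8.27) in DIO-SC and 8.40 to 9.08 (median 8.79) in DIO-SS, without overlap (difference 0.53 ± 0.08 (SE), adjusted p = 5.2e-06). The membrane protease Mmp14 rose by 0.46 (adjusted p = 2.26e-06). Mmp3, at 0.41 (adjusted p = 0.0287), lost its call under both other scalings and without DIO-SC 1, 6 or 7 or DIO-SS 5 (adjusted p up to 0.103). In genes of the matrix itself fewer passed than the 31.8% of all genes. Of 26 genes of fibrillar collagen and its processing 2 rose and 2 fell, among the rises the crosslinking enzyme Lox (0.45, adjusted p = 0.00138), and in limma 0 of 16 basement membrane genes passed. Col1a1, Col4a2 and the collagen chaperone Serpinh1 stood at 0.26 (adjusted p = 0.0716), -0.10 (adjusted p = 0.217) and -0.30 (adjusted p = 0.0642). Pdgfra, a receptor that marks fibroblasts, rose by 0.41 (adjusted p = 1.31e-05), without overlap, while 2 of 15 fibroblast markers rose and 2 fell.

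Of 17 sarcomere genes of heart muscle 0 rose and 1 fell, against 31.8% of all genes past the threshold. Kcne1, a subunit of the slow potassium channel, ranged from 5.12 to 5.60 (median 5.29) in DIO-SC and 3.94 to 5.08 (median 4.56) in DIO-SS, without overlap (difference -0.73 ± 0.14 (SE), adjusted p = 0.000121). Kcnj8, a pore of the ATP-sensitive potassium channel that is also a pericyte marker, rose by 0.27 (adjusted p = 0.000312), without overlap. Rrad, a small GTPase that restrains calcium channels, ranged from 9.91 to 10.80 (median 10.39) in DIO-SC and 10.71 to 11.03 (median 10.93) in DIO-SS, with overlap, and rose by 0.57 (adjusted p = 0.000208). The strain peptides Nppa and Nppb did not pass, at 0.18 (adjusted p = 0.726) and -0.36 (adjusted p = 0.079). Nppa is also an atrial marker, a set whose limit is given below. Bdnf, a nerve growth factor, rose by 0.52 (adjusted p = 0.000343) in both of its probe sets. Klhdc8a, a kelch domain protein, ranged from 7.26 to 7.64 (median 7.44) in DIO-SC and 6.53 to 7.20 (median 6.88) in DIO-SS, without overlap, and fell by 0.57 (adjusted p = 6.88e-06).

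Srsf3, Ddx6, Atrx and Resf1 were further large falls. Srsf3, a splicing factor, ranged from 9.75 to 10.04 (median 9.90) in DIO-SC and 9.19 to 9.46 (median 9.31) in DIO-SS, without overlap, and all 6 of its probe sets were lower (difference -0.58 ± 0.08 (SE), adjusted p = 1.66e-06). Ddx6, a helicase that stores and silences messenger RNA, ranged from 9.95 to 10.27 (median 9.99) in DIO-SC and 8.73 to 9.64 (median 9.38) in DIO-SS, without overlap. It differed by -0.74 ± 0.11 (SE), adjusted p = 5.31e-06, and 1 of its 3 probe sets differed by 0.06. Atrx, a chromatin remodeller, ranged from 7.79 to 8.13 (median 7.83) in DIO-SC and 6.89 to 7.53 (median 7.29) in DIO-SS, without overlap (difference -0.65 ± 0.10 (SE), adjusted p = 5.57e-06). All 5 of its probe sets were lower, the least by 0.01. Resf1, a factor that silences retroelements, differed by -0.84 (adjusted p = 0.000102), with overlap.

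Other large rises were of unlike function. Slc44a2, a choline transporter, ranged from 7.36 to 7.69 (median 7.43) in DIO-SC and 7.73 to 8.39 (median 8.14) in DIO-SS, without overlap, and rose by 0.62 (adjusted p = 1.48e-06), while another of its 3 probe sets differed by -0.06. Ift74, of the transport machinery of cilia, rose by 0.58 (adjusted p = 4.89e-05), and Etfbkmt, a methyltransferase of mitochondria, by 0.55 (adjusted p = 2.03e-06), both without overlap. Ebf2, a transcription factor of brown fat precursors, ranged from 5.99 to 6.51 (median 6.19) in DIO-SC and 6.56 to 6.95 (median 6.73) in DIO-SS, without overlap, and rose by 0.55 (adjusted p = 6.25e-06). All 3 of its probe sets were higher, the least by 0.10.

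Counts for immune genes and markers of other cell types stand against the 31.8% of all genes that passed. Of 20 inflammation genes 0 rose and 2 fell (Ccl11 and Il6ra), of 20 interferon genes 0 rose and 2 fell (Stat2 and Mx2), and in limma 0 of 14 macrophage markers passed. Lymphocyte markers had 2 of 9 lower, Cd3e and Cd4, and the same count without DIO-SC 2. Of 8 white fat, 11 atrial, 13 heart muscle and 4 red cell markers 0 passed. The list means of red cell markers were 7.81 to 8.22 in DIO-SC and 7.87 to 8.51 in DIO-SS, and those of atrial markers 9.12 to 10.44 and 9.60 to 10.01. Smooth muscle and pericyte markers had 3 of 14 higher and 0 lower.

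Whether the response to sidestream smoke depended on the diet was tested as the DIO difference minus the RW difference, which share no arrays. For 2641 genes (28.4%) the interaction passed, with the DIO difference more positive for 1700 (18.3%) and more negative for 941 (10.1%). That balance also turned with the scaling: 64.4% of the calls were more positive as deposited, 42.6% after quantile normalization and 27.6% after centring. Of the DIO calls 1437 (48.5%) were also past in the interaction. The interaction contains the DIO difference itself, so genes called in DIO pass it more readily. This share therefore does not measure how much of the DIO response depends on diet. In RW mice 2288 genes (24.6%) passed, 1083 (11.7%) higher and 1205 (13%) lower under sidestream smoke. Between the lists of both diets, 370 genes rose in both, 17.3% of the DIO rises and 34.2% of the RW rises. Another 187 fell in both, 22.8% of the DIO falls and 15.5% of the RW falls. Of the 2140 DIO rises 132 fell in RW mice, and of the 820 DIO falls 198 rose there. Among all genes 13% fell and 11.7% rose in RW mice. The array RW-SS 7 stood apart: its Gapdh 3' minus 5' difference was 0.94 against 0.22 to 0.30 in the other RW-SS arrays, and its correlation with the mean of its group was 0.990 against 0.993 or more. Without it, 1012 genes rose and 1287 fell in RW mice, 362 rose and 212 fell in both diets, and 2775 interactions passed (1838 more positive and 937 more negative). Of the named genes, Bmp10 and Glul lost the call of their interaction without it.

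The Hsp70 gene Hspa1b had a negative interaction. It differed by -1.77 in DIO and 0.17 in RW mice, an interaction of -1.95 ± 0.35 (SE), adjusted p = 0.000179, where the RW-SC arrays lay at 7.08 to 7.43 and the RW-SS arrays at 7.16 to 7.91. Ddit4l differed in its rise, with 1.08 in DIO and 0.05 in RW mice (interaction 1.03 ± 0.21 (SE), adjusted p = 0.000687). So did Cyp1a1, with 0.74 and -0.14 (interaction 0.88 ± 0.17 (SE), adjusted p = 0.000377). Ahr, Vegfc, Bdnf, Rrad and Ebf2 also had more positive differences in DIO than in RW mice, with interactions of 0.71 (adjusted p = 0.000115), 0.76 (adjusted p = 0.000102), 0.81 (adjusted p = 0.000338), 0.77 (adjusted p = 0.000765) and 0.67 (adjusted p = 0.000204). In air, DIO-SC minus RW-SC was 2.26 for Hspa1b and -1.29 for Cyp1a1. It was -0.32 for Ahr, -0.40 for Vegfc, -0.54 for Rrad and -0.42 for Ebf2. Each of these passed 0.05 in limma. For Bdnf it was -0.21 (adjusted p = 0.161) and for Ddit4l -0.12 (adjusted p = 0.612), and neither passed. What part these air levels had in the interactions was not tested. Timp4 fell in DIO mice by 0.72 and stood at 0.24 in RW mice (interaction -0.96 ± 0.20 (SE), adjusted p = 0.00074).

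Among genes with a more negative difference in DIO mice were several of the glucocorticoid list. Cebpb differed by -0.26 in DIO and 0.63 in RW mice, and its RW-SS arrays (9.75 to 10.33) lay above all RW-SC arrays (9.30 to 9.74). The interaction was -0.89 ± 0.10 (SE), adjusted p = 1.07e-07. Ddit4 (-0.25 and 1.09), Tsc22d3 (-0.14 and 0.48), Tent5c, a poly(A) polymerase (0.41 and 1.46), and Hmox1 (-0.05 and 0.63) had interactions of -1.34 (adjusted p = 0.000281), -0.62 (adjusted p = 0.000176), -1.05 (adjusted p = 0.0242) and -0.68 (adjusted p = 0.00123). The call of Tent5c was lost without RW-SS 2 or 4 (adjusted p up to 0.0576) and with the red cell marker mean as a covariate, and all 4 red cell markers tested rose in RW-SS against RW-SC. Bmp10, an atrial gene, had an interaction of -1.66 (adjusted p = 0.0311), lost without DIO-SC 2, 3 or 8 or RW-SS 2, 4 or 7 (adjusted p up to 0.0635). In the glucocorticoid list the interaction was more negative for 9 of 24 genes and more positive for 2, against 10.1% and 18.3% of all genes.

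Tfrc, Dbp and Nr1d1 fell in both diets, by less in DIO than in RW mice. Tfrc differed by -0.69 in DIO and -2.05 in RW mice (interaction 1.36 ± 0.27 (SE), adjusted p = 0.000424), Dbp by -0.49 and -1.03 (interaction 0.54 ± 0.11 (SE), adjusted p = 0.000697) and Nr1d1 by -0.67 and -1.15 (interaction 0.47 ± 0.11 (SE), adjusted p = 0.00212). In the clock output list 3 of 7 interactions were more positive, against 18.3% of all genes, and 4 did not pass. Among the latter, Hlf differed by -0.46 and -0.53 (interaction 0.07, adjusted p = 0.689). For Bhlhe40 the interaction was 0.11 ± 0.10 (SE), adjusted p = 0.383, and did not pass. Nor did those of Ptgds (-0.17, adjusted p = 0.376), Ednrb (-0.22, adjusted p = 0.203), Srsf3 (0.02, adjusted p = 0.929), Ddx6 (0.01, adjusted p = 0.959) and Gabarapl1 (0.06, adjusted p = 0.609).

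**Figure D4:**
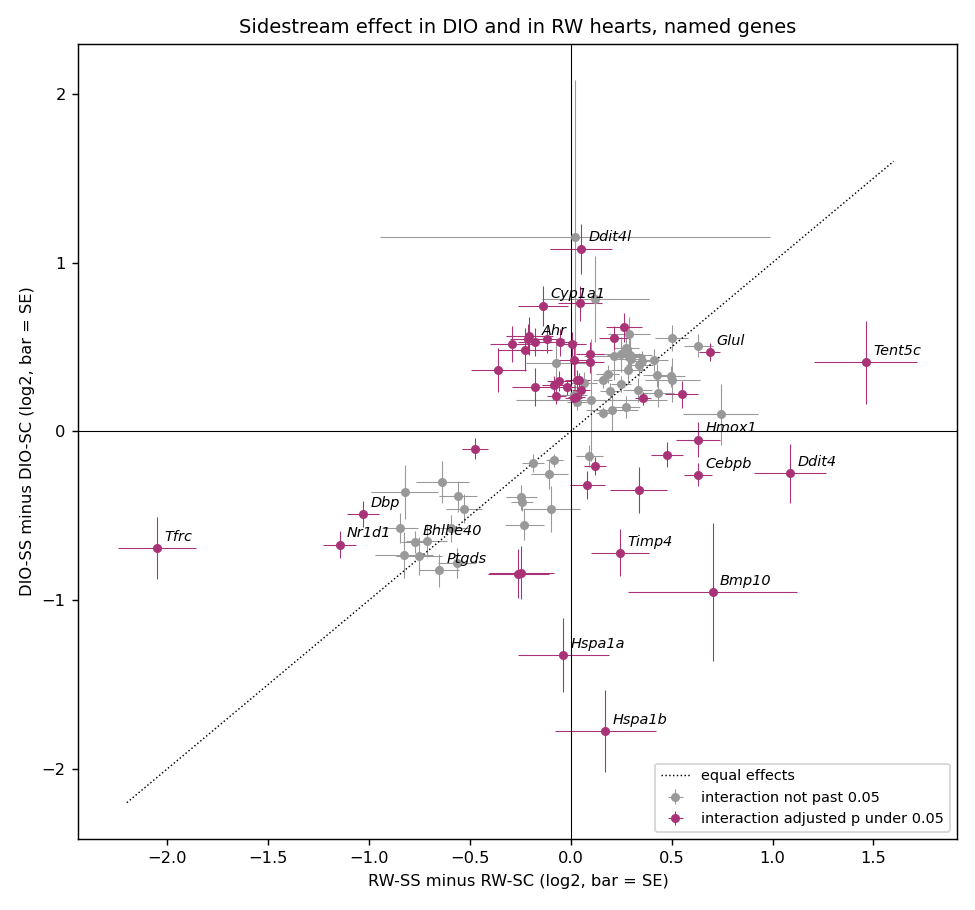
Log2 difference between sidestream smoke and air in RW hearts (horizontal axis) and in DIO hearts (vertical axis) for the named genes, with SE bars, in purple where the interaction passed an adjusted p of 0.05 and in grey where it did not. Hspa1b and Hspa1a lie far below the dotted line of equal effects, while Tfrc, Nr1d1 and Dbp are lower in both diets and lie above it.

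Sidestream was set against mainstream smoke in DIO mice directly, because both differences from air share the DIO-SC arrays. Of all genes 237 (2.55%) passed, 148 (1.59%) higher and 89 (0.958%) lower under sidestream smoke, and 2067 had an unadjusted p under 0.05. This count hung on single arrays of DIO-MS: it was 624 without DIO-MS 5, 827 without DIO-MS 6, and 43, 27, 83 and 37 without DIO-MS 1, 2, 3 and 4. Without DIO-SS 4, 5, 7 or 8 it was 80, 76, 132 and 125. After centring, 27 genes were higher and 154 lower, and after quantile normalization 33 and 73. In every alternative that tested them, 18 genes kept their call.

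Cyp1a1 had the largest difference among the genes past the threshold. It lay at 4.53 to 5.53 in DIO-SS and 5.86 to 6.55 in DIO-MS, with no overlap, and differed by -1.07 ± 0.13 (SE), adjusted p = 1.55e-06. Zbtb16 was also lower under sidestream smoke, with a difference of -0.94 ± 0.16 (SE), adjusted p = 0.001. Dbp averaged 11.07 in DIO-MS, near the 11.03 of DIO-SC, and 10.54 in DIO-SS, a difference of -0.53 ± 0.08 (SE), adjusted p = 0.000726. Ednrb and Ddx6 differed by -0.54 (adjusted p = 0.00155) and -0.61 (adjusted p = 0.00551), and the calls of these 5 genes held in every alternative. Higher under sidestream smoke were Mmp3, Ppp1r14a (an inhibitor of myosin phosphatase in smooth muscle), Ehhadh, Col1a1 and Clmp, a cell adhesion protein, by 0.62 (adjusted p = 0.0277), 0.58 (adjusted p = 0.027), 0.46 (adjusted p = 0.0277), 0.43 (adjusted p = 0.0441) and 0.41 (adjusted p = 0.027). Each of these 5 calls was lost without DIO-MS 2 and without some other arrays (adjusted p up to 0.143). Mmp14, at 0.41 (adjusted p = 0.00107), and Cldn5, at 0.38 (adjusted p = 0.00391), held in every alternative. Hspa1b (-0.21, adjusted p = 0.67), Ddit4l (0.36, adjusted p = 0.18), Ptgds (0.03, adjusted p = 0.877) and Srsf3 (-0.02, adjusted p = 0.933) did not pass.

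**Figure D5:**
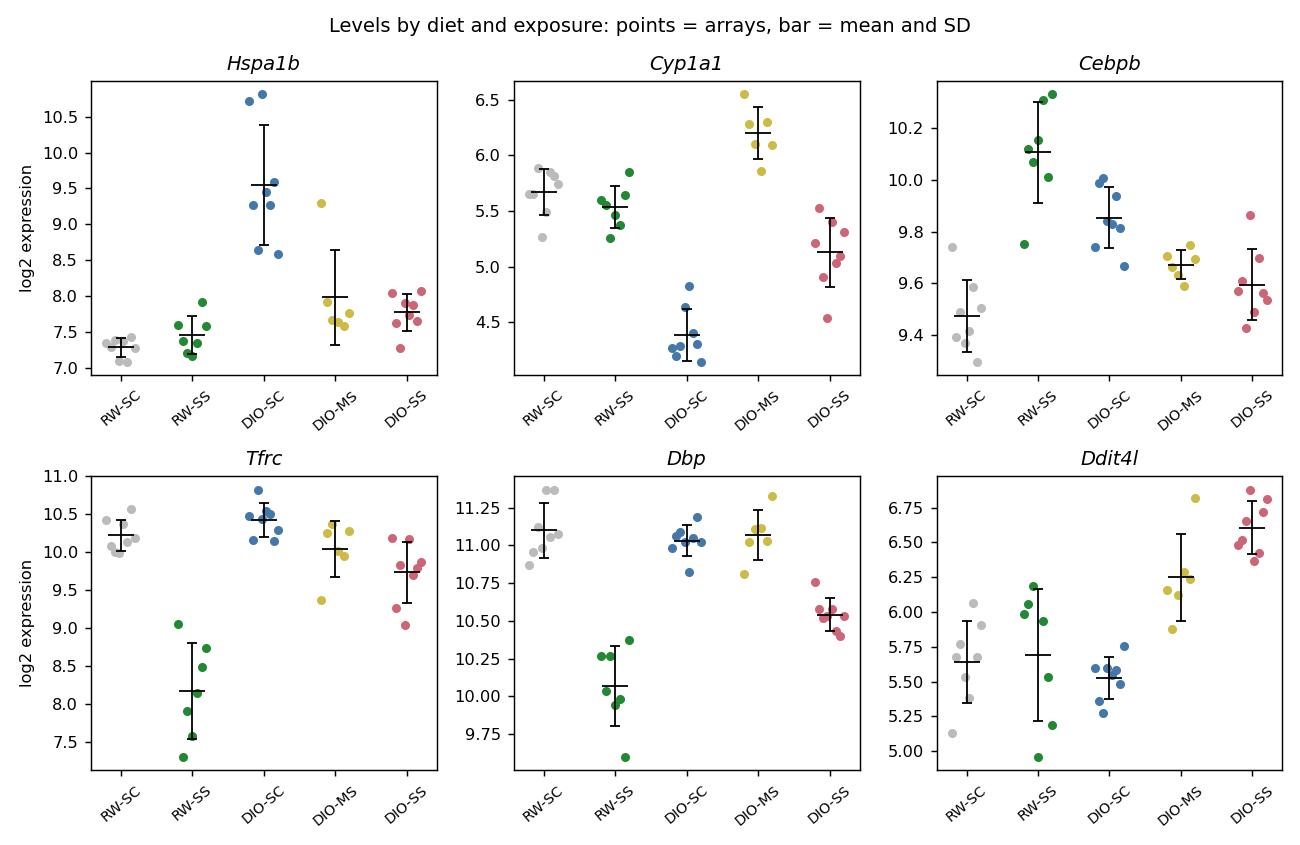
Log2 expression (vertical axes, scaled per gene) of 6 genes in hearts of RW mice (RW-SC, RW-SS) and DIO mice (DIO-SC, DIO-MS and DIO-SS), 1 point per array, with the mean and SD in black. Hspa1b is high and Cyp1a1 low in DIO-SC against every other group shown, Cebpb is highest in RW-SS, and Dbp is lowest in RW-SS and next lowest in DIO-SS.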

How the data were processed

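Total RNA (3 µg per heart) was labelled with biotin and hybridized to 1 Affymetrix mouse array per heart. The deposited values are log2 expression levels per probe set, made by the authors with RMA (background correction, quantile normalization between arrays, summary per probe set) per the submitters' processing notes. Its version and the scan dates are not known here. The number of arrays limits the precision.

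Of 22690 probe sets, 20393 named 1 gene in the array annotation, 691 several and 1606 none. Each gene took its probe set of highest mean. Of 12394 genes, the lowest 25% (mean under 4.90) were left out and 9295 tested. Differences between group means came from 1 limma 3.58.1 model of the 45 arrays (R 4.3.3, eBayes, two-sided, 42.6 degrees of freedom) and adjusted by Benjamini-Hochberg per comparison. The procedure was tested on simulated data. These held no shift of whole arrays, so that test does not bear on the dependence on scaling. Tables and figures used Python 3.11.15, pandas 2.3.3 and matplotlib 3.10.9.

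Named genes are the 15 largest rises and falls, up to 4 genes of smallest adjusted p per list, the 5 largest positive and negative differences of each other comparison, and a panel. List members named without a value, and the genes whose calls held in the comparison with mainstream smoke, were chosen after their values were seen. The groups and the 57 lists (41 pathways, 16 marker sets) were chosen with earlier results of these data known. Lists are described by counts, without a set test. Promoter windows come from RefSeq, GRCm38.p6; Ahr and Bhlhe40 had no entry. P values set each difference of group means against the spread between arrays of the same group.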

Additional observations from a re-analysis of the deposited data

Results flagged for a closer look

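Among the named genes, a single array lay far from the other 7 of its group in 8 of 202 groups of arrays, and by this rule chance alone gives about 1 in 20 groups. In DIO-SC these were Zbtb16 in DIO-SC 1 (7.15, low), Nr4a1 in DIO-SC 2 (8.17, high), Nr1d1 in DIO-SC 3 (7.39, high) and Slc25a28 in DIO-SC 5 (7.69, low). In DIO-SS they were Hspa1a in DIO-SS 1 (7.23, high), Slc25a28 in DIO-SS 2 (8.35, high), Angpt1 in DIO-SS 3 (6.46, high) and Tek in DIO-SS 5 (8.78, high). The DIO calls of these genes held without the array in question.

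The sidestream difference of DIO mice minus that of RW mice passed an adjusted p of 0.05 (limma) for 48 named genes, given here as log2 values. It was negative, with the DIO difference the lower one, for Hspa1b (-1.95), Bmp10 (-1.66), Ddit4 (-1.34), Hspa1a (-1.29), Tent5c (-1.05), Timp4 (-0.96), Cebpb (-0.89), Fkbp5 (-0.68), Hmox1 (-0.68), Tsc22d3 (-0.62), Resf1 (-0.59), Zbtb16 (-0.58), Atf3 (-0.40), Gclm (-0.33), Nr4a3 (-0.33), Glul (-0.22) and Slc25a20 (-0.16). It was positive for Tfrc (1.36), Ddit4l (1.03), Cyp1a1 (0.88), Bdnf (0.81), Rrad (0.77), Vegfc (0.76), Ppp1r14a (0.72), Aplnr (0.71), Cth (0.71), Ahr (0.71), Ebf2 (0.67), Adamts5 (0.58), Dbp (0.54), Arhgap18 (0.51), Nr1d1 (0.47), Col1a1 (0.44), Clmp (0.41), Col4a2 (0.37), Mmp14 (0.37), Tiparp (0.36), Kcnj8 (0.36), Slc44a2 (0.35), Abcb1a (0.34), Pdgfra (0.31), Gsta4 (0.28), Nr3c1 (0.28), Emcn (0.27), Atf6 (0.26), Blvrb (0.19), Csnk1d (0.18) and Tek (0.17). Of these 48 genes, 30 held under all alternatives in which they were tested.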

How the results depend on the processing

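Over 13 alternatives and 16 fits without 1 array, 1114 of the 2960 genes called between DIO-SS and DIO-SC (706 higher, 408 lower) kept their call wherever they were tested, as did 68 of the 85 named genes past the threshold. Centring each array on its median gave 908 higher and 1481 lower genes, 524 more positive interactions, and 27 higher and 154 lower genes against DIO-MS. A further quantile normalization gave 1082 higher genes, 1544 interactions with 658 more positive, and 106 genes against DIO-MS with 33 higher. Leaving out the lowest 50% of genes gave 377 lower genes, 266 more negative interactions and 54 lower genes against DIO-MS, and no filter gave 1563 more negative interactions, since other genes were tested. Array weights gave 1964 genes against DIO-MS (1353 higher, 611 lower), and the atrial marker mean as a covariate 367 (241 higher). The red cell marker mean as a covariate gave 1918 interactions (1154 more positive, 764 more negative). With it the interaction calls of Zbtb16, Resf1, Gclm, Glul, Fkbp5, Tent5c, Atf3, Col1a1, Bmp10, Clmp and Pdgfra were lost. For these the cause was not tested.

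Leaving out 1 array gave 2519 to 2965 genes for DIO-SS against DIO-SC (1844 to 2108 higher, 675 to 873 lower) and 2251 to 2775 interactions (1417 to 1838 more positive, 834 to 976 more negative). Against DIO-MS it gave 27 to 827 genes (11 to 552 higher, 16 to 275 lower). The fits without an array of RW-SC, RW-SS or DIO-MS, RW-SS 7 included, were chosen after seeing the data. With the replicate block of title numbers, 2071 genes were higher and 795 lower in DIO-SS than in DIO-SC, 1666 interactions were more positive and 930 more negative, and 124 genes were higher and 89 lower than in DIO-MS. Whether the numbers pair the mice is not known. Arrays of the same number correlated at -0.31 to 0.28 after removal of group means, and 1 of 8 matched its own number best. So few values cannot settle the question. The mean of all probe sets turned Nr3c1 to -0.0039 (adjusted p = 0.968). Low signal limits Cyp1a1 and Cth, whose DIO-SC means were under 4.90, and Kcne1, whose DIO-SS mean was.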
